A study of Mus musculus with 8 samples.

Results

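The Sfmbt2 intronic miRNA cluster is a tandem array of miRNA hairpins of the miR-297, miR-466, miR-467 and miR-669 families inside an intron of the mouse gene Sfmbt2. Its members were taken by a rule on position, as every mature miRNA with a locus inside the gene on chromosome 2. This gave 70 mature names at 139 loci, of 1966 names at 2108 loci in the whole table. Names with the same counts in all 8 libraries were then kept as 1 profile, since the authors kept all multimapping reads and equal counts may be the same reads. Of the 70 names, 42 had at least 1 count, and these formed 29 distinct profiles, while 28 names were at 0.

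Sfmbt2 encodes a Polycomb-related protein with malignant brain tumour repeats, and in the mouse it is imprinted, with expression from the paternal allele in extraembryonic tissues. The intronic miRNA array is found in rodents and is known for its expression in trophoblast and embryonic stem cells and for its role in placental development. As for other miRNAs, Drosha cuts each hairpin out of the primary transcript, Dicer removes the loop, and either strand of the resulting duplex, the 5p or the 3p arm, can be loaded into an Argonaute protein.

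The libraries were small RNA libraries of NIH 3T3 cells, an immortalised mouse fibroblast line, made from total RNA 48 h after transient transfection. Cells received CAG-EGFP-Lin28IR, U6-Lin28aIR, CAG-EGFP-MosIR or U6-MosIR, with 2 libraries per plasmid from separately transfected wells and 8 libraries in all. The plasmids express an inverted repeat of Mos or Lin28 sequence, which folds into long double-stranded RNA, from the RNA polymerase II promoter CAG or the RNA polymerase III promoter U6. An EGFP reporter is present on the plasmids named CAG-EGFP. Per the paper, their double-stranded RNA is also longer and has long single-stranded overhangs, and CAG-EGFP-Lin28IR includes a Lin28b segment. The promoter cannot be told apart from these differences of the transcript. Every group expressed a hairpin, and no hairpin-free control was analysed here. The paper's methods and the sample labels give different plasmid amounts per well. Whole wells of a single cell line were sampled, and p-values measure the spread between wells.

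Each library had between 12898619 and 16228597 perfectly mapped reads, so that 1 count corresponded to 0.0616 to 0.0775 reads per 1000000 perfectly mapped reads (RPM) and a count of 0 in a library allowed up to 0.185 to 0.233 RPM (3 counts). Over the 8 libraries together, with 117214649 reads, 0 counts allowed up to 0.0256 RPM. These limits and all intervals below cover counting error only. The miRNAs that mark fibroblasts were detected throughout, with a mean of 1 RPM or more for 18 of 18 names and a summed level of 38976 to 90869 RPM per library. Of 22 names that mark embryonic stem cells and trophoblast, 1 had a count, which was miR-295-3p with 1 count over the 8 libraries. Of the neuron list, 2 of 4 names averaged 1 RPM or more, with miR-9-5p at 159 RPM. Markers of other tissues reached the level of the cluster's own members, with counts for 6 of 7 blood names, 3 of 7 muscle names and 1 of 2 liver names. The muscle marker miR-206-3p stood at 0.54 RPM (61 counts) and the liver marker miR-122-5p at 0.42 RPM (49 counts). Their part in the cluster's counts was not tested.

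The members belong to families that also have copies elsewhere in the genome, and 10 such names of the miR-466, miR-467 and miR-669 families had no locus in the cluster. Of these, 9 had 0 counts in all 8 libraries and miR-466f had 1 count. That count was in the first CAG-EGFP-Lin28IR library, as was the only count of the members miR-466f-5p and miR-669e-5p. It may therefore be the same read. Mature sequences from RefSeq (GRCm38.p6) matched 0 of the 70 members and 8 of the 10 relatives outside the cluster. The following are shown because they let the families be seen side by side, with the seed, bases 2 to 8, in capitals. All 4 had 0 counts.
miR-466i-3p: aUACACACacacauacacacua
miR-466k: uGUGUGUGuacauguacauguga
miR-467f: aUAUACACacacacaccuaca
miR-669n: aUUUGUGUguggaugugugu
In GRCm38.p6 these lie at chr13:17747552-17747573 (miR-466i-3p), chr3:85467396-85467418 (miR-466k) and chr3:115979905-115979924 (miR-669n) on the plus strand, and at chr11:69635419-69635439 on the minus strand (miR-467f).

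The cluster was at the lower edge of what these libraries measured. Its profiles summed to 370 counts over the 8 libraries, which is 0.00191% of all miRNA counts, and to 3.18 ± 1.33 RPM (SD, n = 8). No member had a mean of 1 RPM or more, whereas 312 of the 1896 names outside the cluster did (16.5%). A share of 60.0% of the members had at least 1 count, beside 51.5% of the names outside, 977 of 1896. The 42 members with a count formed only 29 distinct profiles, so names that may share reads raise the share of the members. The member with the highest mean, the shared profile of miR-466a-3p, miR-466b-3p, miR-466c-3p, miR-466e-3p and miR-466p-3p, stood at 0.53 RPM, below 348 names outside the cluster. In bulk RNA, fewer cells that express a miRNA and less of it per cell cannot be told apart.

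**Figure D1:**
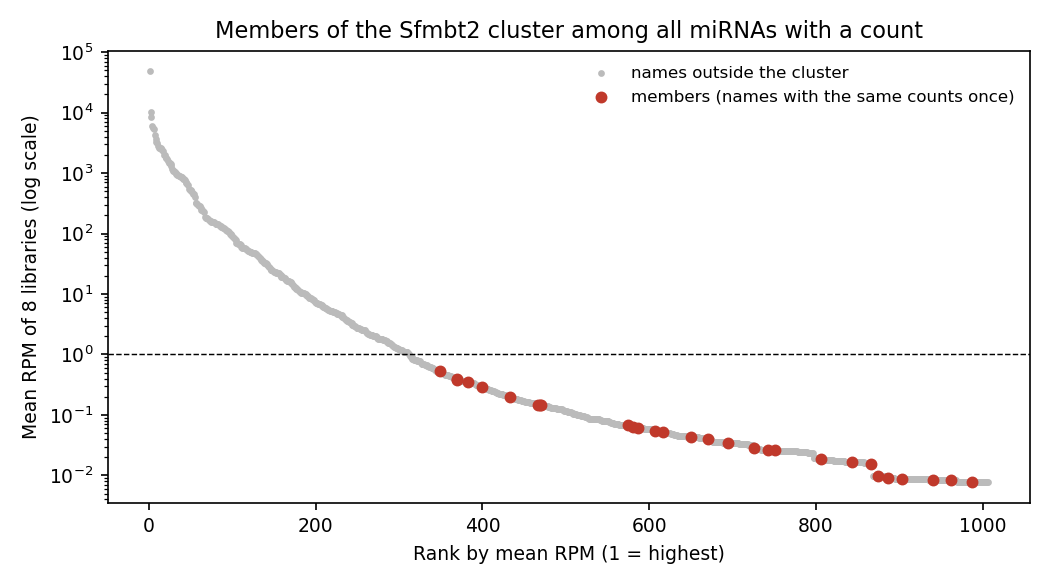
Mean RPM of the 8 libraries (log scale) against rank for the miRNAs with at least 1 count, with the 29 profiles of the cluster in red and names outside it in grey. The dashed line marks 1 RPM, and all profiles of the cluster lie below it.

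Counts were concentrated in few members. The 9 profiles with 17 or more counts held 301 of the 370 counts (81.4%), and they covered 16 names. The other 20 profiles, covering 26 names, had 1 to 8 counts each. Only 4 profiles had a count in all 8 libraries, 3 had one in 7 libraries and 7 in a single library. Allowing mismatches hardly moved these numbers, since with 1 or 2 mismatches 6 names gained at most 1 count and the same number of names, 42, had a count.

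The members spanned 51564 bp of chromosome 2 (GRCm38, 10466677-10518240) within Sfmbt2, which runs from 10370510 to 10595253 on the plus strand (ENSMUSG00000061186). All of them lay in 1 intron, 10461473-10523944, which is intron 11 of 1 annotated transcript and intron 10 of another, and no Sfmbt2 exon overlapped the span. All 139 loci lay inside annotated miRNA genes on the plus strand, the strand of Sfmbt2. The 139 loci came from 72 hairpins, of which 67 had both arms listed.

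Much of the array repeated at a similar distance. The 10 loci of miR-467a-5p followed each other with a median spacing of 2462 bp, and 7 of the 9 spacings lay between 2300 and 2600 bp. For the 8 loci of miR-466b-3p the median was 2468 bp, with 4 of 7 spacings in that range and the widest at 9796 bp. For the 12 loci of miR-669a-5p it was 2457 bp, with 8 of 11 in that range and the widest at 6379 bp. Loci of 1 name could not be told apart by these counts. Of the 17 names at more than 1 locus, 14 had the same total at every locus. The exception among the abundant ones was miR-466b-3p, with 61 counts at 7 of its loci and 35 at the last. A name listed at many places was therefore counted at its highest locus and not summed over copies.

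Detection was set against the number of listed copies. All 6 names at 8 or more loci had a count, with a median of 28.5 counts, and 10 of the 11 names at 2 or 3 loci had one, with a median of 3. Of the 53 names at a single locus, 26 had a count and the highest had 61. The single-locus names with 17 or more counts and no identical profile elsewhere were miR-467b-5p (10481256-10481276), miR-467e-5p (10505731-10505752), miR-467c-5p (10473941-10473962) and miR-466d-3p (10512017-10512037). Of these, miR-467b-5p differed from the repeated name miR-467a-5p by only 1 count. Along the intron, the 65 loci with 17 or more counts lay between 7.26 and 47.7 kb from the first locus, and the ends of the array held low counts.

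**Figure D2:**
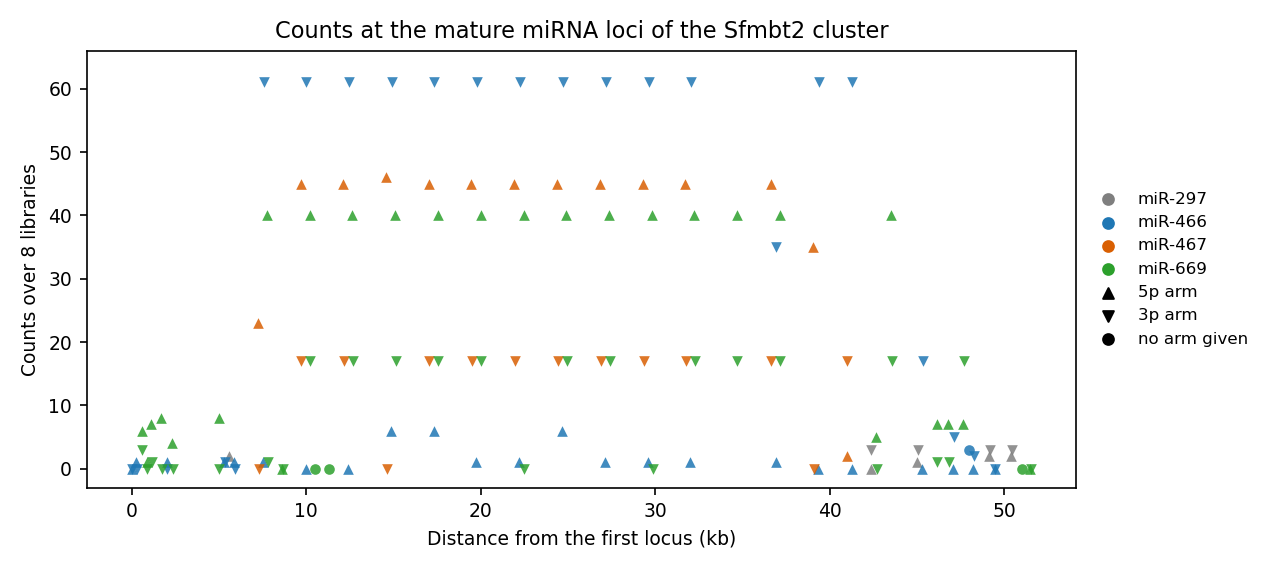
Counts over the 8 libraries (vertical axis) at each of the 139 mature miRNA loci against the distance in kb from the first locus, with families in colour and arms by symbol. Loci with equal totals form level rows, at 61 counts for miR-466 3p arms of several names, 45 for miR-467a-5p and 40 for miR-669 5p arms. The single locus of miR-467b-5p lies at 46, and 1 locus of miR-466b-3p lies off its row at 35.

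By family, the 10 miR-467 names gave 168 counts and 1.43 ± 0.64 RPM (SD, n = 8), the 29 miR-669 names 101 counts and 0.88 ± 0.64 RPM, and the 25 miR-466 names 97 counts and 0.84 ± 0.46 RPM. The 6 miR-297 names gave 6 counts. A profile shared between families was counted in each. The miR-467 sum holds both miR-467b-5p with 46 counts and miR-467a-5p with 45, which differed by 1 count and may be largely the same reads. The spreads of miR-669 and miR-466 overlapped almost entirely.

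The shared miR-466 3p profile was the most abundant. It had 8 and 5 counts with CAG-EGFP-MosIR, 13 and 14 with U6-MosIR, 7 and 0 with CAG-EGFP-Lin28IR, and 9 and 5 with U6-Lin28aIR. Over the 8 libraries its 61 counts corresponded to 0.52 RPM (exact Poisson 95% interval 0.40 to 0.67). The U6-MosIR libraries were highest, the second CAG-EGFP-Lin28IR library had none, and the ranges of the CAG-EGFP and U6 libraries overlapped. A second 3p profile of the family, miR-466d-3p, had 17 counts, with 1 and 4 counts for CAG-EGFP-MosIR, 5 and 1 in U6-MosIR, 3 and 0 in CAG-EGFP-Lin28IR, and 3 and 0 in U6-Lin28aIR. No plasmid stood out in it, and replicate wells differed as much as plasmids did.

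The most abundant miR-467 members were 5p arms. For miR-467b-5p the counts were 6 and 5 with CAG-EGFP-MosIR, 8 and 8 with U6-MosIR, 4 and 1 with CAG-EGFP-Lin28IR, and 3 and 11 with U6-Lin28aIR, 46 in all (0.39 RPM, exact Poisson 95% interval 0.29 to 0.52). The counts of miR-467a-5p were the same except for 1 count in 1 library, 45 in all, so these 2 names may be largely the same reads counted under each. Without miR-467a-5p the cluster summed to 325 counts and 2.80 RPM.

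The other 5p arms of the family differed from these in their order over libraries. The counts of miR-467e-5p were 0 and 3 with CAG-EGFP-MosIR, 8 and 7 with U6-MosIR, 2 and 3 with CAG-EGFP-Lin28IR, and 2 and 10 with U6-Lin28aIR, 35 in all. Of the U6 libraries, 3 were thus above every CAG-EGFP library, but the first U6-Lin28aIR library was within their range. The counts of miR-467c-5p were 4 and 4 with CAG-EGFP-MosIR, 2 and 2 with U6-MosIR, 1 and 2 with CAG-EGFP-Lin28IR, and 3 and 5 with U6-Lin28aIR, 23 in all. The profile shared by miR-467a-3p and miR-467d-3p had 17 counts, between 0 and 4 per library, and miR-467d-5p had 2.

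The miR-669 family was led by the profile of miR-669a-5p and miR-669p-5p, with 3 and 2 counts with CAG-EGFP-MosIR, 4 and 16 with U6-MosIR, 2 and 1 with CAG-EGFP-Lin28IR, and 6 and 6 with U6-Lin28aIR, 40 in all (0.34 RPM, exact Poisson 95% interval 0.24 to 0.46). A single library, the second of U6-MosIR, held 16 of the 40. The profile of miR-669a-3p and miR-669o-3p had 0 and 1 counts with CAG-EGFP-MosIR, 0 and 8 with U6-MosIR, 3 and 1 with CAG-EGFP-Lin28IR, and 0 and 4 with U6-Lin28aIR. The same U6-MosIR library was the highest in it. The next members, miR-669d-5p with 8 counts, the profile of miR-669b-5p and miR-669m-5p with 7 and miR-669o-5p with 7, had between 0 and 3 counts in any library and gave no order between plasmids.

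**Figure D3:**
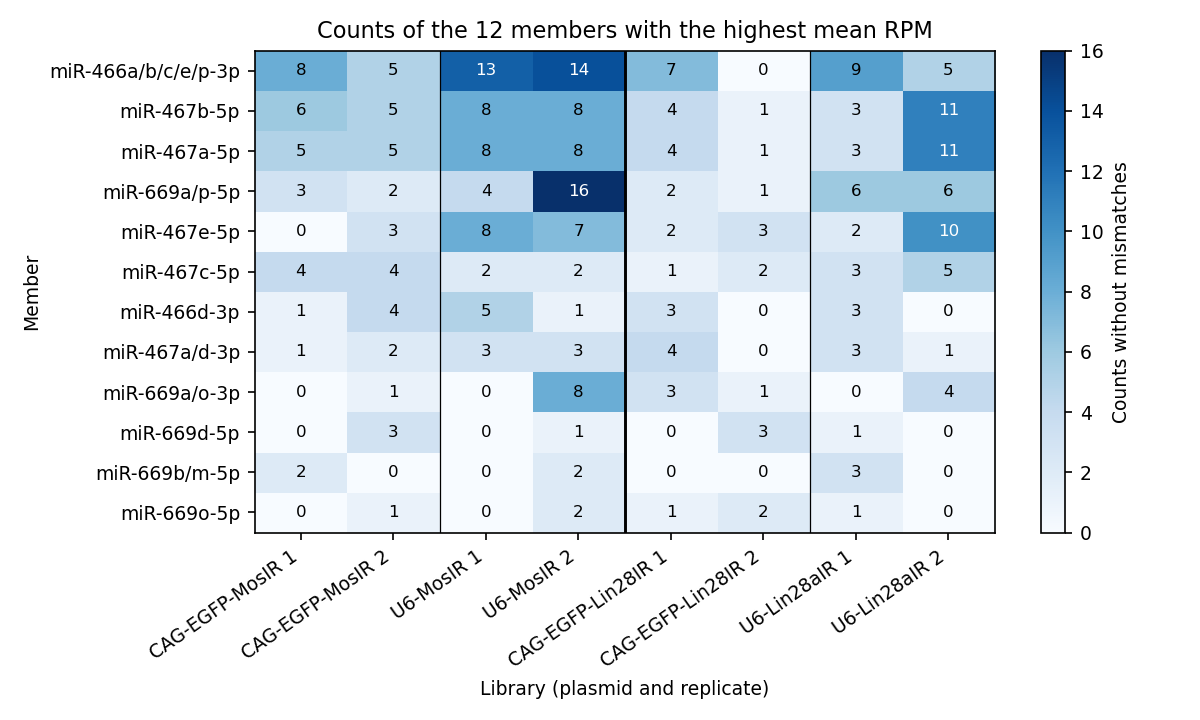
Counts without mismatches of the 12 members with the highest mean RPM (rows) in each of the 8 libraries (columns, plasmid and replicate), with the count printed in each cell and darker blue for more. The highest single value is 16 counts, for miR-669a/p-5p in U6-MosIR replicate 2, and CAG-EGFP-Lin28IR replicate 2 has at most 3 counts in any cell.

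The arm with more counts was mostly 3p in miR-466 and mostly 5p in miR-467 and miR-669. Of 13 pairs of a 5p and a 3p name of 1 hairpin with at least 20 counts between them, all 5 of miR-466 had more 3p counts, all 4 of miR-467 had more 5p counts, and 3 of 4 of miR-669 had more 5p counts. The miR-467d pair, just below that limit, went against its family, with 2 counts on the 5p arm and 17 on the 3p arm (89.5% on the 3p arm, exact Clopper-Pearson 95% interval 66.9 to 98.7), but its 3p counts are those of miR-467a-3p. Pairs within a family share counts, so these are not independent cases. In the miR-466b hairpin, 61 counts were on the 3p arm and 1 on the 5p arm (98.4% on the 3p arm, exact Clopper-Pearson 95% interval 91.3 to 99.96). In the miR-467a hairpin the order was the opposite, with 45 counts on the 5p arm and 17 on the 3p arm (72.6% on the 5p arm, 59.8 to 83.1), and in miR-669a there were 40 on the 5p arm and 17 on the 3p arm (70.2%, 56.6 to 81.6).

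For several hairpins the minor arm was at 0. The 3p arms of miR-467b, miR-467c, miR-467e and miR-669p had 0 counts beside 46, 23, 35 and 40 on their 5p arms. The 46 of miR-467b-5p were those of miR-467a-5p except for 1 count, and the 40 of miR-669p-5p were those of miR-669a-5p. Both miR-467a-3p and miR-669a-3p had 17 counts. The 5p arms of miR-466a, miR-466e and miR-466p had 0 beside the 61 of their shared 3p profile. The miR-669a-3-3p arm had 1 count beside the 40 of miR-669a-5p. The miR-669o pair had 7 counts on the 5p arm and 17 on the 3p arm, which it shares with miR-669a-3p. The 5p arm of miR-466c, with 6 counts, was the highest minor arm in the miR-466 family.

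**Figure D4:**
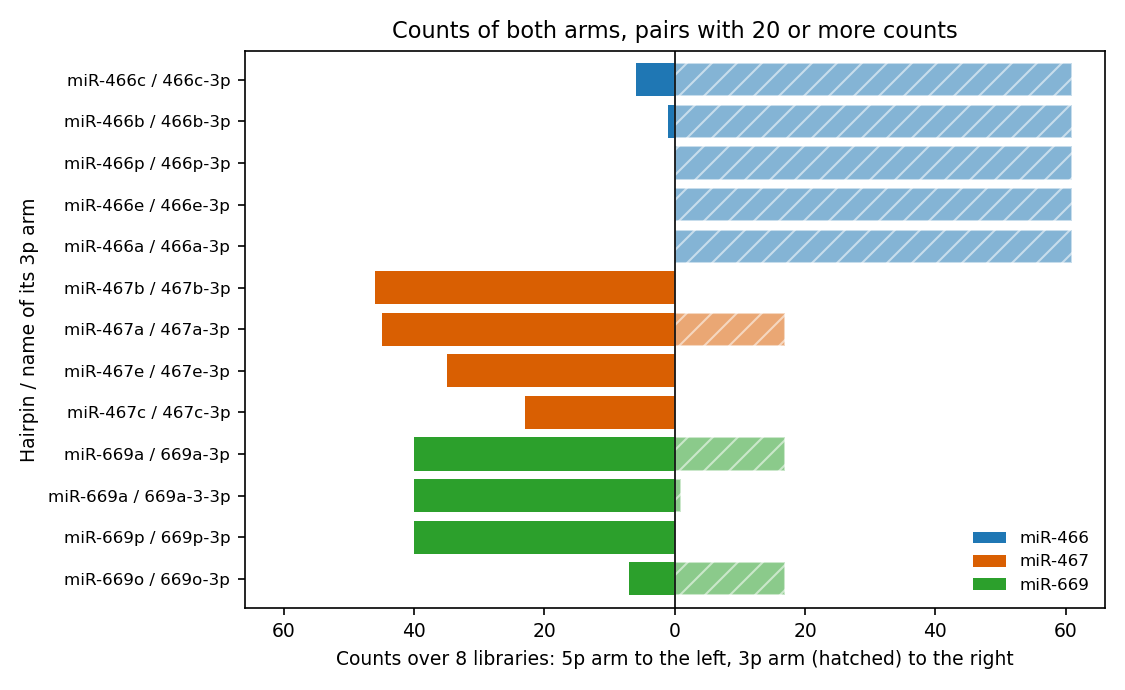
Counts over the 8 libraries of the 5p arm (solid, to the left) and the 3p arm (hatched, to the right) for the 13 pairs with 20 or more counts, coloured by family. All miR-466 pairs extend mainly to the right, to 61 counts, all miR-467 pairs mainly to the left, and of the miR-669 pairs only miR-669o has more on the right.

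The design asks whether the type of plasmid, named here by its promoter, or the hairpin sequence goes with a different miRNA level. Summed over the profiles, the cluster had 31 and 42 counts with CAG-EGFP-MosIR, 59 and 79 with U6-MosIR, 36 and 18 with CAG-EGFP-Lin28IR, and 48 and 57 with U6-Lin28aIR. Relative to the perfectly mapped reads this was 2.2 ± 0.75 RPM in the 4 CAG-EGFP libraries and 4.18 ± 0.95 RPM in the 4 U6 libraries (SD, n = 4), a ratio of 1.92. The CAG-EGFP libraries ranged from 1.13 to 2.85 RPM and the U6 libraries from 3.64 to 5.61 RPM, with no overlap. The ratio was 1.84 with the Mos hairpin and 2.03 with the Lin28 hairpin.

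All miRNAs together differed between the same libraries. Their counts were 13.5% ± 2.30 of the perfectly mapped reads in the CAG-EGFP libraries and 19.6% ± 1.70 in the U6 libraries (SD, n = 4). Per 1000000 miRNA counts, the cluster stood at 15.8 ± 3.73 in the CAG-EGFP libraries, from 10.4 to 18.9, and at 21.6 ± 5.72 in the U6 libraries, from 17.1 to 29.96. These ranges overlapped, and the ratio was 1.37. The low end came from the second CAG-EGFP-Lin28IR library and the high end from the second U6-MosIR library. Without the former the ratio was 1.23, without the latter 1.19, and without both 1.07. Both were picked by their own values, so leaving them out could only lower the ratio. The other libraries were not left out on this scale. The part of the total miRNA share in the higher RPM of the cluster was not tested.

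**Figure D5:**
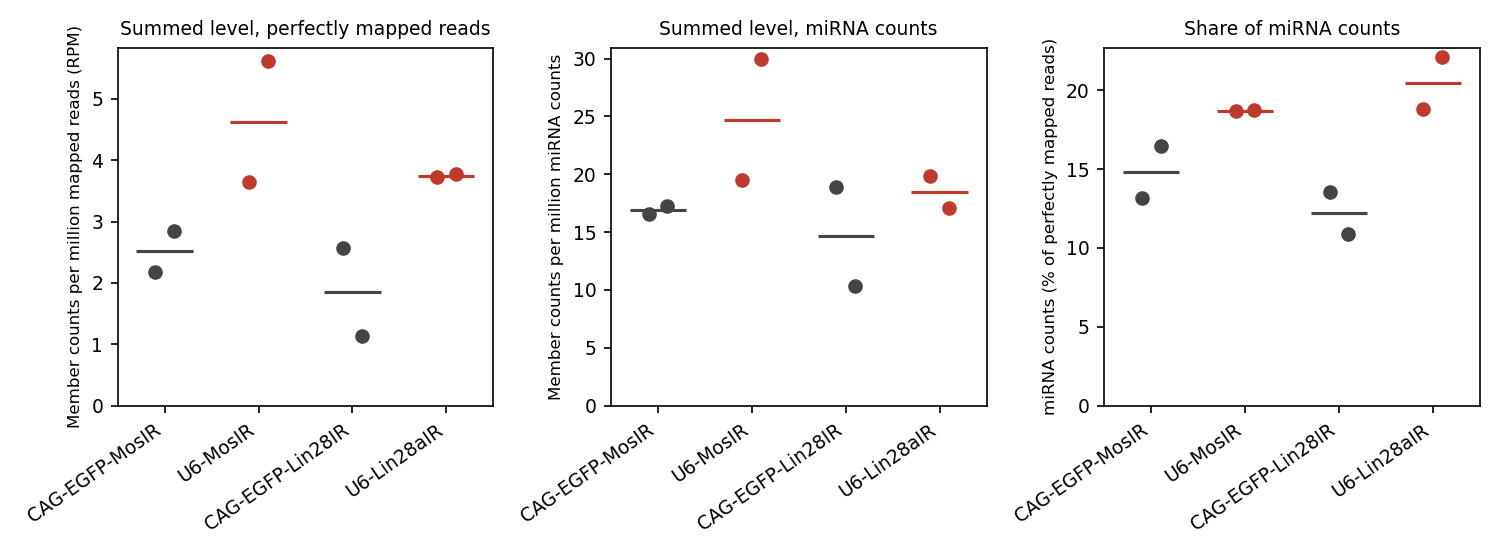
Summed level of the cluster in RPM of perfectly mapped reads (left) and per 1000000 miRNA counts (middle), and miRNA counts as a percentage of perfectly mapped reads (right), with 1 point per library, grey for CAG-EGFP and red for U6 plasmids and a line at the mean of 2 libraries. The U6 libraries lie above all CAG-EGFP libraries on the left and right, but in the middle the promoters overlap, from 10.4 to 18.9 and from 17.1 to 29.96.

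Per member, all 9 profiles with 17 or more counts had a higher mean RPM in the U6 libraries, by 1.10 to 4.06 times, and 7 of them in both hairpins, but scaled by TMM without a filter on low counts miR-466d-3p and miR-467c-5p had log2 fold changes of -0.28 and -0.27. Without the second CAG-EGFP-Lin28IR library, 2 of the 9 were no longer higher, miR-467c-5p with a ratio of 0.995 and miR-466d-3p with 0.825. Among 119 names outside the cluster with a comparable 17 to 61 counts, 83 were higher in the U6 libraries, with a median ratio of 1.42 beside 1.95 for the 9 members. The limit of 17 counts is on the total of both promoters, so it favours profiles that are high with either. Of the 9, miR-467a-5p and miR-467b-5p may be largely the same reads, so they are not independent cases. The 4 libraries of each promoter did not overlap for 1 of the 29 member profiles, miR-669a/p-5p, at 0.14 ± 0.06 RPM in the CAG-EGFP libraries and 0.56 ± 0.39 RPM in the U6 libraries (SD, n = 4). Over all 1006 profiles with a count, 11.8% separated in this direction, and of the 119 names with comparable counts 2 did (1.68%). Its ratio of 4.06 fell to 2.68 without the second U6-MosIR library. Among the 9 profiles with 17 or more counts, the next largest ratios were those of miR-467e-5p, 3.38, and of the miR-669a/o-3p profile, 2.42, which was 1.03 without that same library.

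In the edgeR quasi-likelihood test over all miRNAs, scaled by TMM, 356 miRNAs had enough counts to be tested and only 1 member profile, miR-466a/b/c/e/p-3p, was among them. It passed in none of the 5 comparisons. For U6 against CAG-EGFP its log2 fold change was 0.54 (SE 0.61, edgeR adjusted p = 0.807), where 0.562% of all tested miRNAs were called, 2 of 356. For Lin28 against Mos it was -0.75 (SE 0.61, edgeR adjusted p = 0.971), with 0 miRNAs called. For U6-MosIR against CAG-EGFP-MosIR it was 0.72 (SE 0.75), for U6-Lin28aIR against CAG-EGFP-Lin28IR 0.35 (SE 0.97), and for the difference between these 2 contrasts -0.37 (SE 1.26), with edgeR adjusted p of 0.994, 0.998 and 0.996. The standard error was larger than the difference in 4 of the 5 comparisons. Without the first CAG-EGFP-Lin28IR library, which leaves that group at 0 counts for this profile, the log2 fold change was 3.20 for U6 against CAG-EGFP and -3.42 for Lin28 against Mos, and without the second it was 0.03 and -0.28.

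The 2 calls with U6 against CAG-EGFP were miR-5126 and miR-3535, which lie outside the cluster and were lower with U6. For the comparisons with 0 calls, edgeR gave 11 miRNAs at an unadjusted p under 0.05 for Lin28 against Mos, 19 for U6-MosIR against CAG-EGFP-MosIR and 13 for the interaction, and DESeq2 called 0, 1 and 0 in them.

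With no filter on low counts, all 29 profiles entered the edgeR fit among 1006 and 0 were called in any comparison. Of the 1006, 0.298% were called within the Lin28 hairpin and 0.0994% within the Mos hairpin. For U6 against CAG-EGFP 0.398% were called, and 1 of the 29 had an unadjusted p under 0.05, beside 4.87% of all, while none of the members did in the other 4 comparisons. This was miR-669a/p-5p, with a log2 fold change of 1.48 and an unadjusted p = 0.0479 (edgeR adjusted p = 1.00). The median log2 fold change was 0.56 over the 29 member profiles and 0.05 over all 1006. Above 0 were 19 of the 29, beside 52.7% of all, and 12 of the member profiles rest on 1 to 3 counts. With the perfectly mapped reads as library size in place of TMM, the medians were 1.04 and 0.49, with 24 of 29 members and 74.7% of all above 0. Of the 1006, 11.9% were called and again 0 members. At an unadjusted p under 0.05 were 2 members, beside 22.7% of all, with miR-669a/p-5p at a log2 fold change of 1.96 (edgeR adjusted p = 0.0669). For Lin28 against Mos, scaled by TMM, the median of the members was -0.09, beside -0.02 over all, with 14 of 29 above 0, beside 47.1% of all.

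The remaining 20 profiles were too sparse to compare. They had 29 counts in the CAG-EGFP libraries and 40 in the U6 libraries in total, with more U6 counts in 12, fewer in 5 and equal counts in 3. Among the 28 names at 0 were all listed arms of miR-466l, miR-466m, miR-669h and miR-669k, and the names miR-669g, miR-669i and miR-669j, for each of which the 8 libraries allowed up to 0.0256 RPM.

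In 2 other clusters of miRNAs with restricted expression, no name had a mean of 1 RPM or more either. In the imprinted Dlk1-Dio3 cluster on chromosome 12, 41 of 115 names had a count, the highest being miR-379-5p with 81 counts and 0.69 RPM, and its names summed to 2.2 to 2.58 RPM in the CAG-EGFP libraries and 4.44 to 5.27 RPM in the U6 libraries. These sums are over names, without merging equal counts. Summed in the same way, the Sfmbt2 names gave 1.26 to 5.41 RPM in the CAG-EGFP libraries and 5.83 to 11.6 RPM in the U6 libraries. The order of the promoters in RPM was therefore the same in the Dlk1-Dio3 cluster as in the Sfmbt2 cluster. In the miR-290 to miR-295 cluster, which like the Sfmbt2 cluster is known from embryonic stem cells and trophoblast, 2 of 18 names had a count and the highest, miR-292b-5p, had 7. Detection thus reached 60.0% of the names in the Sfmbt2 cluster, 35.7% in Dlk1-Dio3 and 11.1% in miR-290 to miR-295, but names of the Sfmbt2 cluster share counts, and these shares were not tested against each other.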

How the data were processed

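Per the paper's methods and the submitters' processing notes, the authors trimmed adapters, mapped reads with STAR 2.5.3a to mm10 with the plasmid sequences added, allowed up to 2 mismatches, kept all multimapping reads and took loci from miRBase. The sources used here do not give the rule that assigned reads to a miRNA. The deposited values are raw counts per mature miRNA locus and counts of mapped reads per library, from 12898619 to 16228597 perfectly mapped reads. RPM was computed as counts without mismatches over perfectly mapped reads.

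Members were taken by position. The members, lists and tests were chosen with earlier results of these data known. A name was counted at its highest locus in the cluster, and profiles with the same nonzero counts were kept as 1. Members named are the 12 highest by mean RPM, the other arms of their hairpins, the tested member, and others where 5 or fewer were counted. The arms at 0 and the names miR-379-5p, miR-292b-5p, miR-295-3p and miR-9-5p were named after their values were seen.

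The test was edgeR 4.0.16 in R 4.3.3 (robust quasi-likelihood, TMM, filterByExpr), with 4 plasmids in 1 fit of 8 libraries, Benjamini-Hochberg adjustment and a threshold of 0.05, in 5 comparisons, checked on simulated data. No test was made on sums over members. Alternatives were DESeq2 1.42.0, deposited library sizes, other filters, mismatches, locus rules, a replicate block, no robust estimation and leaving out each library. No filter together with deposited library sizes was added after the data were seen. The second CAG-EGFP-Lin28IR and second U6-MosIR libraries, left out for ratios per miRNA count and per member, were picked by their values. Genes are from GENCODE M21.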

Additional observations from a re-analysis of the deposited data

Results flagged for a closer look

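The summed level of the cluster in U6-MosIR replicate 2 was 5.61 RPM, far from the other 3 U6 libraries, which lay between 3.64 and 3.78 RPM. Of 22 groups of 4 libraries examined in this way, for the cluster sums and the 9 profiles with 17 or more counts, this was the 1 that stood apart, and chance gives about 1 in 20.

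For miR-467c-5p the promoter difference ran in opposite directions with each hairpin. Its mean in the U6-MosIR libraries was lower than in CAG-EGFP-MosIR (-0.14 RPM), and its mean in the U6-Lin28aIR libraries was higher than in CAG-EGFP-Lin28IR (0.18 RPM), with no overlap of the 2 libraries of each plasmid in either. Of the 9 member profiles with 17 or more counts it was the 1 with this pattern, which 6 of 119 names outside the cluster with 17 to 61 counts also had (5.04%). The differences rest on 1 to 5 counts per library, 23 in all, and in edgeR without a filter on low counts the difference between them was 2.02 on the log2 scale (SE 1.81, edgeR adjusted p = 1.00).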

How the results depend on the processing

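No member was called under any setting in which a member was found among the tested profiles. With a mean of at least 10 RPM, 0 members were tested. With loci summed, miR-466b-3p no longer shared its counts with the other names of the tested profile. Members were looked up under the shared profile only, so whether these names were tested or called with loci summed was not examined. The number of miRNAs called for U6 against CAG-EGFP rose from 2 to 184 with deposited library sizes, 4 with no filter and 120 with both, and for U6-Lin28aIR against CAG-EGFP-Lin28IR from 2 to 205 with deposited sizes, 131 with both and 4 with up to 2 mismatches. For U6-MosIR against CAG-EGFP-MosIR it was 1 in place of 0 with DESeq2, no filter, a mean of at least 10 RPM, or summed loci. TMM removes a shift common to most miRNAs, which deposited sizes keep. Leaving out each library in turn gave 2 to 10 and 0 to 7 calls for the first 2 comparisons, 0 to 11 for U6-MosIR against CAG-EGFP-MosIR, and 0 to 3 each for Lin28 against Mos and the interaction.

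The summed level was 3.18 RPM, 12.4 RPM of the 18–30-nt reads and 18.7 per 1000000 miRNA counts, and 2.84 to 3.48 RPM when a library was left out; the ratio of U6 over CAG-EGFP was then 1.65 to 2.14. Members with a mean of at least 0.1 RPM numbered 9, and 0 reached 1 RPM whichever library was left out.

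For miR-466a/b/c/e/p-3p, the log2 fold change when a library was left out ranged from 0.03 to 3.20 for U6 against CAG-EGFP, from -3.42 to -0.28 for Lin28 against Mos and from 0.30 to 1.20 within Mos. A direction changed only in comparisons far from the threshold. Within Lin28 the log2 fold change of 0.35 became -0.63 without CAG-EGFP-Lin28IR replicate 2, -0.34 without U6-Lin28aIR replicate 1 and 5.67 without CAG-EGFP-Lin28IR replicate 1, which leaves a group at 0 counts. The interaction of -0.37 ranged from -1.33 (without CAG-EGFP-Lin28IR replicate 2) to 4.94 when a library was left out, and became 0.092 with deposited sizes, 0.083 with no filter as well, 0.083 without CAG-EGFP-MosIR replicate 2, 0.22 without U6-Lin28aIR replicate 2 and 4.94 without CAG-EGFP-Lin28IR replicate 1. The cause was not tested. With fewer than 10 counts per library in most profiles, depth limits every comparison of members.

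Replicate numbers only number the wells. The differences between replicates 1 and 2 correlated between plasmids with r from -0.16 to 0.12 over 356 miRNAs. With the number as a replicate block, the calls were 2, 0, 2, 0 and 0, as without it, and miR-466a/b/c/e/p-3p had a log2 fold change of 0.58 for U6 against CAG-EGFP.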
